A study of Homo sapiens with 60 samples.

Results

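Menthae Herba (mint herb) and Saposhnikoviae Radix (the root of Saposhnikovia) are single herbs of Korean medicine, and their hot water extracts were set head to head in HepG2, a human hepatocellular carcinoma cell line. The comparison takes the 3 libraries of cells given Menthae Herba water extract at 500 µg/mL and the 3 libraries of cells given Saposhnikoviae Radix water extract at 500 µg/mL, both harvested after 24 h. They are 6 of the 60 RNA-seq libraries of the series, chosen by their sample codes. The same extracts at 20 and 100 µg/mL (6 libraries at each dose) and 3 vehicle libraries, also harvested after 24 h, are used as context. The vehicle is 0.1% DMSO in the sample labels and 2% DMSO in the series text, and the labels give no DMSO content for the extract libraries. The first part of the sample code differs between vehicle and both herbs, so herb and code cannot be told apart against vehicle. The series text lowers the doses of extracts that inhibited the cells by 20% at under 500 µg/mL; both extracts are labelled 500, and cell viability was not analysed here. All groups share 1 cell line, which is a transformed model of liver, and the labels do not say whether replicates are separate cultures. The p-values therefore set differences only against the spread between libraries within groups, estimated over 57 libraries in 19 groups.

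HepG2 cells keep many hepatocyte programmes: they secrete plasma proteins, make hepcidin, the hormone that limits iron export, and insulin-like growth factor binding proteins, and they answer xenobiotics through the aryl hydrocarbon receptor (AHR). Metallothioneins are small zinc-binding proteins whose genes are switched on by the zinc sensor MTF1 through metal response elements. Hepcidin transcription is driven by bone morphogenetic proteins (BMP) through SMAD factors, while the binding protein gene IGFBP1 and the gluconeogenic gene G6PC1 are held down by insulin, which keeps FOXO factors out of the nucleus.

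The 3 Menthae Herba libraries at 500 held 29008903, 25070138 and 26277025 expected counts and the 3 Saposhnikoviae Radix libraries 30561990, 22675470 and 30496471. All 10 hepatocyte and hepatoblast markers were present in the 6 libraries, with a summed level of 46100 to 48200 CPM (counts scaled to a common library total) with Menthae Herba and 46300 to 48300 CPM with Saposhnikoviae Radix. The summed level of 7 leukocyte markers was 2540 to 2600 CPM with Menthae Herba and 1130 to 1260 CPM with Saposhnikoviae Radix, nearly all of it LYZ, the lysozyme gene, while PTPRC, CD3E and HBB were at 0 in all 6. The sum of 7 fibroblast markers was 23.9 to 25.6 CPM with Menthae Herba and 11.7 to 12.4 CPM with Saposhnikoviae Radix. It was nearly all PDGFRB, and COL1A2 and LUM were at 0 in all 6. Mitochondrially encoded mRNAs took 7.05 to 9.85% of counts with Menthae Herba and 7.87 to 9.12% with Saposhnikoviae Radix.

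The herbs at 500 µg/mL left the cells with widely different transcript levels. Of 16644 genes tested, 5337 differed (32.1%): 2660 were higher with Menthae Herba (16.0%) and 2677 were lower (16.1%), at a Benjamini-Hochberg adjusted p under 0.05 by edgeR's quasi-likelihood test. At least 2-fold differences were fewer and less even, with 286 genes higher and 118 lower. The median log2 fold change over all genes was 0.008. Against vehicle, 6623 genes (39.8%) were called with Menthae Herba and 966 (5.80%) with Saposhnikoviae Radix. A gene is called under that threshold in all that follows, fold changes are log2 of Menthae Herba over Saposhnikoviae Radix with their standard error, and levels are CPM, which are not corrected for gene length. Each count of a gene list at 500 µg/mL is to be set beside the 16.0% higher and 16.1% lower over all genes. Wherever a gene list is given below with 0 members in a direction at 500 µg/mL, edgeR at an unadjusted p under 0.05 and DESeq2 also gave 0 there. In bulk RNA, fewer cells that express a gene and less of its RNA per cell cannot be told apart.

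**Figure D1:**
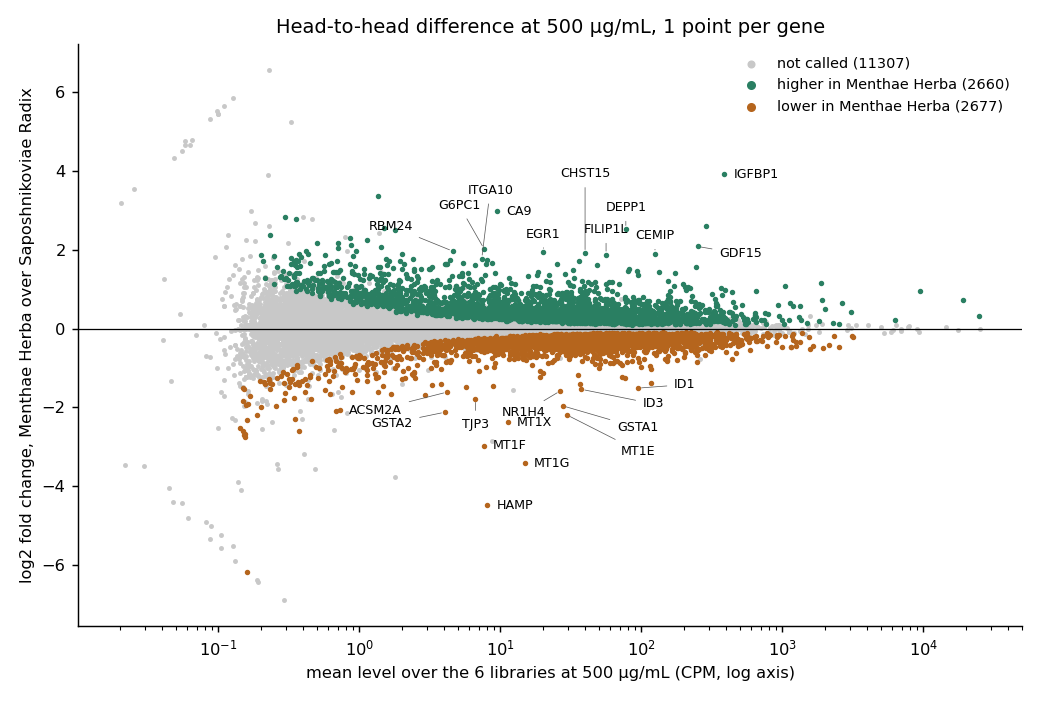
Log2 fold change of Menthae Herba over Saposhnikoviae Radix at 500 µg/mL (vertical axis) against the mean level over the 6 libraries (horizontal axis, CPM, log scale), 1 point per tested gene. Green points are the 2660 called higher, brown points the 2677 called lower and grey points the rest; IGFBP1 at 3.91 and HAMP at -4.47 lie outermost among the 23 labelled genes, and all points beyond them average under 1 CPM.

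IGFBP1 (ENSG00000146678, chr7:45888357-45893668 in GENCODE v29 on GRCh38), the insulin-suppressed binding protein for insulin-like growth factors, showed the largest difference among the genes named as higher. It stood at 692, 773 and 718 CPM in the Menthae Herba libraries, against 44.2, 51.2 and 50.1 CPM in the Saposhnikoviae Radix libraries. Vehicle libraries averaged 26.5 ± 3.65 CPM (SD, n = 3), so both herbs lay above vehicle and Menthae Herba far above both. The log2 fold change was 3.91 ± 0.23 (95% interval 3.44 to 4.38, edgeR adjusted p = 4.6e-17). G6PC1, glucose-6-phosphatase, the last step of glucose release, had 12.3, 12.5 and 12.1 CPM with Menthae Herba, against 3.02, 2.63 and 3.38 CPM with Saposhnikoviae Radix and 1.41 ± 0.0886 CPM in vehicle, a log2 fold change of 2.02 ± 0.17 (edgeR adjusted p = 1.2e-13). The groups did not overlap for either gene.

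The promoter of G6PC1 is shown because it is a textbook site of FOXO binding, and TGTTT is the forkhead core. RefSeq (GRCh38.p14) places the 250 bases before its start at chr17:42900549-42900798 on the plus strand, and TGTTT, searched on both strands and in capitals here, occurs 3 times on the gene's strand and 1 time on the other. This 5-base word is common: 40.4% of 35116 promoter windows of the same length hold it.
G6PC1: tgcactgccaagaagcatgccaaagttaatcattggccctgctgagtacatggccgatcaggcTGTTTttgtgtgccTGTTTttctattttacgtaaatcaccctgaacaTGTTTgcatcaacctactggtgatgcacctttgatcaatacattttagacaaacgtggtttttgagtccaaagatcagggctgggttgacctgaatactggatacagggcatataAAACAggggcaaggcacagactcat

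Of 18 tested genes of the insulin and FOXO response, 11 were higher and 1 was lower, with a median log2 fold change of 0.51. Beside IGFBP1 and G6PC1, TXNIP, an inhibitor of glucose uptake, differed by 1.14 ± 0.07 with 86.7, 98.9 and 99.2 CPM under Menthae Herba, against 40.9, 42.2 and 45.8 CPM under Saposhnikoviae Radix. Its relative ARRDC4 differed by 1.04 ± 0.12 and PPARGC1A, a coactivator of fasting genes, by 0.74 ± 0.08. IRS1 (-0.07 ± 0.08) and FOXO1 (0.01 ± 0.08) were not called, and KLF15, a fasting-induced factor, was lower at -0.48 ± 0.09. In the insulin-like growth factor system 7 of 9 tested genes were higher and 0 were lower. Binding proteins differed most, with IGFBP6 at 1.01 ± 0.14 and IGFBP4 at 0.72 ± 0.05, the receptor IGF1R stood at 0.40 ± 0.06, and the growth factor IGF2 itself was not called (0.10 ± 0.09, 95% interval -0.08 to 0.28).

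Other genes with large positive fold changes had varied roles. GDF15, a stress hormone of the TGF-beta family, had 357, 442 and 414 CPM with Menthae Herba, against 93.8, 91.2 and 101 CPM with Saposhnikoviae Radix, where vehicle averaged 98 ± 8.17 CPM. Every Menthae Herba library lay above the other 6, and the log2 fold change was 2.08 ± 0.10. DEPP1, a FOXO target linked to autophagy, differed by 2.52 ± 0.14, CEMIP, a hyaluronan-binding protein, by 1.90 ± 0.07, CHST15, a sulphotransferase of chondroitin, by 1.91 ± 0.11, and ITGA10, a collagen-binding integrin, by 1.77 ± 0.12. RBM24, an RNA-binding protein of muscle splicing, differed by 1.96 ± 0.13 and FILIP1L by 1.87 ± 0.13. In each of these 7 genes the 3 libraries of the herbs did not overlap, which the naming rule required.

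**Figure D2:**
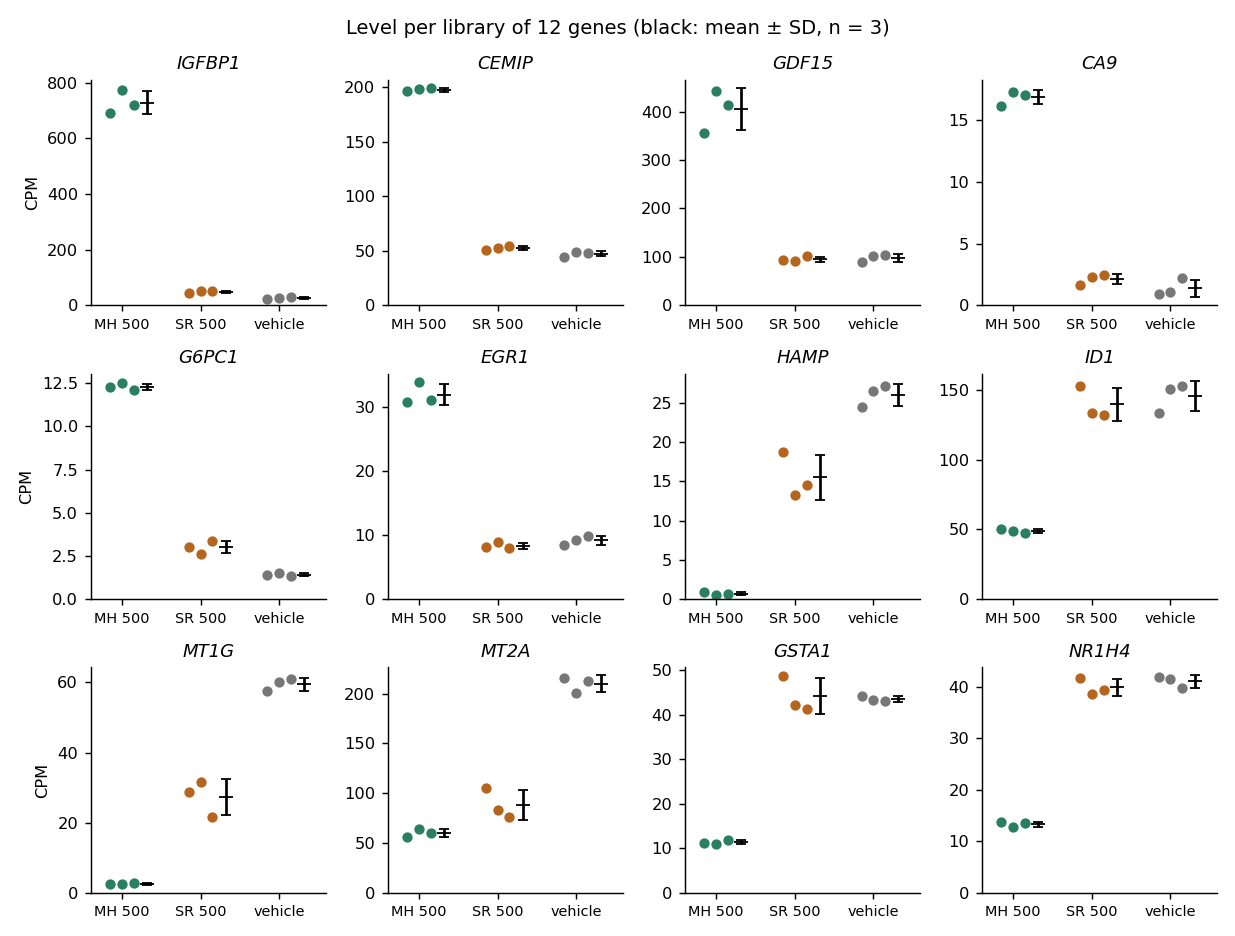
Level (CPM, linear axis from 0) of 12 genes in each library of Menthae Herba 500 µg/mL (MH), Saposhnikoviae Radix 500 µg/mL (SR) and vehicle, with the mean and SD over 3 libraries in black. In IGFBP1, CEMIP, GDF15, CA9, G6PC1 and EGR1 the Menthae Herba libraries stand above both other groups; in HAMP, ID1, MT1G, GSTA1 and NR1H4 they stand below both, and for MT2A both herbs lie below vehicle.

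Glycolysis genes were higher with Menthae Herba as a nearly complete set. Of 22 tested, 20 were higher and 0 lower, with a median log2 fold change of 0.55, against 16.0% of all genes. All 4 genes of glucose entry, all 7 lower enzymes and all 3 genes of lactate and pyruvate handling were called. SLC2A1, the main glucose carrier of growing cells, had 1388, 1437 and 1444 CPM with Menthae Herba, against 665, 671 and 702 CPM with Saposhnikoviae Radix, a log2 fold change of 1.07 ± 0.05 (edgeR adjusted p = 1.1e-24). PFKFB3 and PFKFB4, which make the activator of phosphofructokinase, differed by 1.21 ± 0.11 and 0.92 ± 0.10, and the aldolase ALDOC by 0.92 ± 0.09. The exceptions were PFKL (0.13 ± 0.06) and PFKM (0.25 ± 0.15), subunits of phosphofructokinase itself. Vehicle averaged 661 ± 34 CPM for SLC2A1 and 4.01 ± 0.210 CPM for PFKFB3. PFKFB4 was also higher with Saposhnikoviae Radix than in vehicle (0.37 ± 0.10, edgeR adjusted p = 0.023).

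Genes known as targets of the hypoxia-inducible factors, counted outside glycolysis, showed the same direction: 17 of 21 tested were higher and 0 lower, with a median of 0.74. CA9, a carbonic anhydrase that marks low oxygen, had 16.2, 17.3 and 17.1 CPM with Menthae Herba, against 1.68, 2.27 and 2.49 CPM with Saposhnikoviae Radix (log2 fold change 2.98 ± 0.43, edgeR adjusted p = 3.8e-07); its vehicle mean was 1.39 ± 0.693 CPM. NDRG1, a differentiation gene induced by low oxygen, had 133, 143 and 136 CPM with Menthae Herba, against 48.1, 57.6 and 54.6 CPM with Saposhnikoviae Radix (1.36 ± 0.11). BNIP3L, a mitophagy receptor, differed by 1.17 ± 0.11 and LOX, which cross-links collagen, by 1.11 ± 0.18. CA12, ANGPTL4, HILPDA and EFNA3 were not called.

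Hepcidin had the largest negative fold change of the named genes. HAMP (ENSG00000105697, chr19:35280716-35285143), which encodes the hormone that blocks the iron exporter ferroportin, had 0.900, 0.501 and 0.665 CPM in the Menthae Herba libraries, against 18.7, 13.2 and 14.5 CPM in the Saposhnikoviae Radix libraries and 26 ± 1.39 CPM in vehicle. The 3 groups did not overlap. The Menthae Herba values were low but lay above the 0.0926 to 0.147 CPM that 3 counts give in a library. That floor covers counting error only. The log2 fold change was -4.47 ± 0.22 (95% interval -4.90 to -4.03, edgeR adjusted p = 4.6e-21). Its promoter window (chr19:35282278-35282527, plus strand, RefSeq on GRCh38.p14) is printed because the GGCGCC core of the BMP response element was described in this gene. That palindrome, in capitals, occurs 1 time, from base 105 to base 100 before the RefSeq start, and 16.4% of promoter windows hold it.
HAMP: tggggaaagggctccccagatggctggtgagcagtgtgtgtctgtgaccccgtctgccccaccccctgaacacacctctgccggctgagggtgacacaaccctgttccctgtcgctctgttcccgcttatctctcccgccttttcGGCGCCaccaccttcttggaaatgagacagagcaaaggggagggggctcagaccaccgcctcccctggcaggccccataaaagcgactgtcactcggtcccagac

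Most SMAD targets were lower too. ID1, ID2 and ID3 encode inhibitors of DNA binding that respond directly to BMP. ID1 had 50.5, 49.2 and 47.4 CPM with Menthae Herba, against 153, 134 and 132 CPM with Saposhnikoviae Radix (-1.51 ± 0.08). For ID3 the values were 19.3, 19.5 and 18.9 CPM with Menthae Herba and 67.3, 49.3 and 50.6 CPM with Saposhnikoviae Radix (-1.54 ± 0.12), and ID2 differed by -1.26 ± 0.09. Saposhnikoviae Radix lay near the vehicle means of 146 CPM for ID1 and 63.6 CPM for ID3. For ID2 it lay below vehicle, at a log2 fold change over vehicle of -0.28 ± 0.09 (edgeR adjusted p = 0.048). All 3 inhibitors of the pathway were lower: SMAD7 (-1.07 ± 0.09), SMAD6 (-0.52 ± 0.09) and TMPRSS6, the protease that trims hemojuvelin (-0.31 ± 0.12). Among 6 tested ligand and receptor genes 1 was higher, the receptor ACVR1 (0.46 ± 0.07), and 1 lower, BMPR1A (-0.15 ± 0.06). The signal carriers SMAD5 (0.01 ± 0.08) and SMAD4 (0.06 ± 0.06) were not called, while the carrier SMAD1 (-0.24 ± 0.08) and the target ATOH8 (-1.14 ± 0.26) were lower. In all, 10 of 17 tested genes of the list were lower and 1 was higher.

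Of 11 genes of cellular iron, 3 were higher and 2 lower, where 16.0% of all genes were higher and 16.1% lower. TFRC, the transferrin receptor, had 579, 560 and 584 CPM with Menthae Herba, against 315, 281 and 317 CPM with Saposhnikoviae Radix and 362 ± 11.3 CPM in vehicle (0.92 ± 0.07). SLC40A1, ferroportin, had 78, 73.8 and 79.6 CPM with Menthae Herba, against 49.5, 47 and 45.2 CPM with Saposhnikoviae Radix (0.71 ± 0.04), with vehicle between them at 59.7 ± 0.846 CPM. The iron sensors ACO1 and FBXL5 were lower (-0.26 ± 0.05 and -0.29 ± 0.07). The ferritin chains FTH1 (0.12 ± 0.09) and FTL (-0.02 ± 0.11) were not called.

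Metallothionein genes lay far below Saposhnikoviae Radix with Menthae Herba, although both herbs were below vehicle. The level summed over 7 metallothionein genes was 74.4, 83.7 and 80.2 CPM with Menthae Herba, against 232, 196 and 167 CPM with Saposhnikoviae Radix and 439 ± 13.9 CPM in vehicle (SD, n = 3). MT1G (ENSG00000125144, chr16:56666731-56668065) had 2.39, 2.38 and 2.89 CPM with Menthae Herba, against 28.7, 31.7 and 21.6 CPM with Saposhnikoviae Radix and 59.5 ± 1.84 CPM in vehicle, a log2 fold change of -3.41 ± 0.21 (edgeR adjusted p = 1.5e-16). MT1F differed by -2.97 ± 0.21, MT1X by -2.37 ± 0.15 and MT1E by -2.19 ± 0.19. MT2A, the main human isoform, differed less: 56.1, 63.9 and 60 CPM with Menthae Herba, against 105, 83.6 and 76.1 CPM with Saposhnikoviae Radix, -0.56 ± 0.17 (edgeR adjusted p = 0.0076). That call was lost without Saposhnikoviae Radix replicate 1, the highest of its group (-0.41, adjusted p = 0.085). MT1M was also lower, with herb means under 1 CPM, and MT1A was not called (-0.56 ± 0.24). These genes are near-identical neighbours on chromosome 16, so the counts of a single member depend on how shared reads were assigned, and the sum is the safer value.

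MT1X and MT2A, 2 neighbours that differed by unlike amounts, are printed with the metal response core in capitals. Its forms TGCACNC and TGCGCNC, searched on both strands, do not overlap each other in these windows. The 250 bases before the start lie at chr16:56682220-56682469 for MT1X and chr16:56608334-56608583 for MT2A, both on the plus strand (RefSeq, GRCh38.p14). MT1X holds 4 matches and MT2A 7, while 24.8% of all promoter windows hold at least 1. A match is a run of letters and not a shown binding site.
MT1X: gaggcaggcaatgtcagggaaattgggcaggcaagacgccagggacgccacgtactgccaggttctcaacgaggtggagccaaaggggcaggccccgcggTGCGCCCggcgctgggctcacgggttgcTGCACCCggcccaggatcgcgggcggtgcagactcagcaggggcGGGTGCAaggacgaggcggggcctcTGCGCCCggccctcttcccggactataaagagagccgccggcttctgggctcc
MT2A: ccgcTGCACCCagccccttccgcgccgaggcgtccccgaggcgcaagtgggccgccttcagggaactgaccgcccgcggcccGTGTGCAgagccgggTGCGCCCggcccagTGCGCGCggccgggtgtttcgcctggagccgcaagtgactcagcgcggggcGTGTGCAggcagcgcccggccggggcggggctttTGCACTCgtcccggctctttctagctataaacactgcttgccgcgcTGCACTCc

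The zinc carriers of the list moved in both directions. The exporter SLC30A1, which MTF1 controls, had 60.3, 55.8 and 57.9 CPM with Menthae Herba, against 94.6, 81.6 and 87.9 CPM with Saposhnikoviae Radix (-0.60 ± 0.07), and SLC30A10, which carries manganese, was also lower (-0.77 ± 0.08). Of 3 importers, SLC39A10 was higher at 1.37 ± 0.09 and SLC39A4 at 0.72 ± 0.07, and SLC39A14 was not called (0.07 ± 0.06). MTF1 itself was not called (-0.17 ± 0.07).

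The AHR target CYP1A1 (ENSG00000140465, chr15:74719542-74725610), a cytochrome P450, was high with both extracts. It had 65.9, 67.9 and 74.5 CPM with Menthae Herba, against 75.5, 83.1 and 81.5 CPM with Saposhnikoviae Radix, both far above 7.75 ± 0.710 CPM in vehicle. The groups did not overlap, and the log2 fold change was -0.20 ± 0.06 (95% interval -0.32 to -0.09, edgeR adjusted p = 0.0037). Of 9 tested AHR pathway genes, 3 were higher and 3 lower. The receptor AHR itself was higher at 0.27 ± 0.06, and its repressor AHRR and the target TIPARP were not called (0.16 ± 0.23 and -0.12 ± 0.07). ALDH3A1, an aldehyde dehydrogenase of this pathway, was lower (-0.73 ± 0.23). CYP1B1 and CYP3A4 did not pass the filter on low counts.

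NRF2 targets split, with 9 of 30 tested higher and 7 lower. AKR1B10, an aldo-keto reductase, had 116, 113 and 122 CPM with Menthae Herba, against 76.2, 72.6 and 74.9 CPM with Saposhnikoviae Radix (0.65 ± 0.06). SLC7A11, the cystine carrier, was higher by 1.52 ± 0.08 with 118, 118 and 126 CPM with Menthae Herba, against 41.2, 41.7 and 43.5 CPM with Saposhnikoviae Radix, and the quinone reductase NQO1 by 0.18 ± 0.05. HMOX1, haem oxygenase, was lower at 49.9, 47.6 and 45.1 CPM with Menthae Herba, against 72.4, 68.4 and 65.3 CPM with Saposhnikoviae Radix (-0.53 ± 0.06), as was NFE2L2, which encodes NRF2 itself (-0.45 ± 0.05). Alpha-class glutathione transferases, which conjugate electrophiles, were lower. GSTA1 had 11.2, 11 and 11.8 CPM with Menthae Herba, against 48.7, 42.2 and 41.3 CPM with Saposhnikoviae Radix and 43.5 ± 0.620 CPM in vehicle (-1.96 ± 0.11), and GSTA2 differed by -2.12 ± 0.16; these 2 genes share sequence, so their split is uncertain. Of 7 tested targets of the drug receptors PXR and CAR, these 2 were lower and 3 were higher. ABCC2, an export pump for conjugates, was higher at 0.55 ± 0.04, and the cytochrome P450 CYP3A5 at 0.77 ± 0.11.

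**Figure D3:**
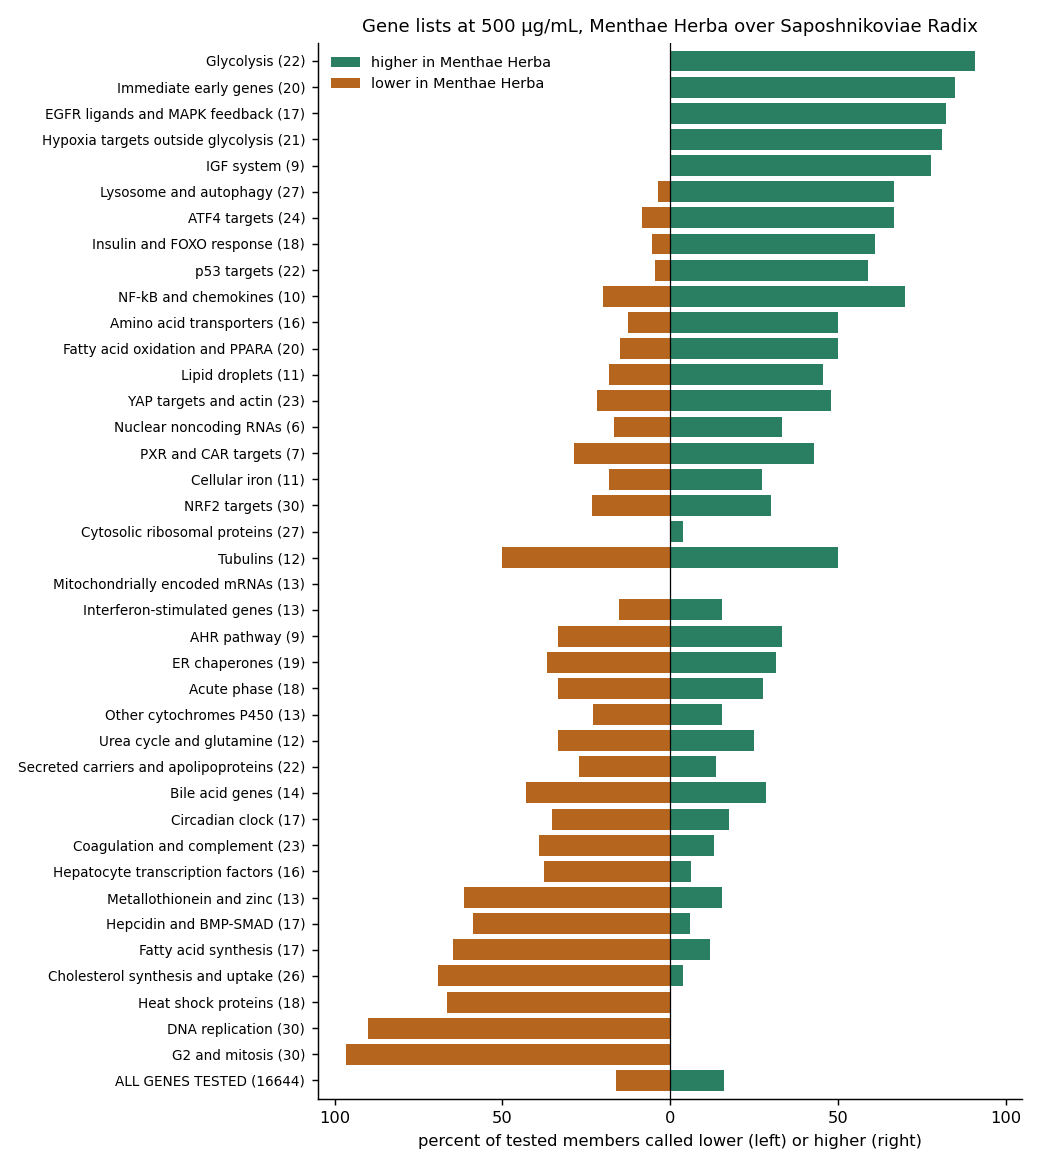
Percent of the tested members of each gene list that were called higher (green, to the right) or lower (brown, to the left) with Menthae Herba than with Saposhnikoviae Radix at 500 µg/mL, with the number tested in brackets. The bottom bar gives all 16644 genes, 16.0% higher and 16.1% lower; glycolysis has 20 of 22 members higher, G2 and mitosis 29 of 30 lower, and mitochondrially encoded mRNAs 0 of 13 called.

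Immediate early genes, the first transcripts after growth factor signals, were higher in 17 of 20 tested members and lower in 0, with a median of 0.86. EGR1, a zinc finger factor, had 30.9, 34 and 31.2 CPM with Menthae Herba, against 8.12, 8.87 and 8.06 CPM with Saposhnikoviae Radix and 9.17 ± 0.724 CPM in vehicle (1.94 ± 0.10, edgeR adjusted p = 1.4e-22). IER3 differed by 1.46 ± 0.11 and ATF3 by 1.41 ± 0.13. Of ligands of the EGF receptor and feedback genes of the MAPK cascade, 14 of 17 were higher and 0 lower. HBEGF, a ligand, differed by 1.64 ± 0.17, and the phosphatases DUSP5, DUSP6 and DUSP1, which switch MAPK off, by 1.64 ± 0.17, 1.17 ± 0.08 and 0.96 ± 0.10. DUSP6 had 74.2, 92 and 92.8 CPM with Menthae Herba, against 37.3, 39.5 and 38 CPM with Saposhnikoviae Radix. In the NF-kB list 7 of 10 were higher and 2 lower; the chemokine CCL20 differed by 1.20 ± 0.13 and the adhesion molecule ICAM1 by 0.66 ± 0.05, while the inhibitor NFKBIA was lower at -0.27 ± 0.07.

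Of 24 tested targets of ATF4, the factor of amino acid and translation stress, 16 were higher and 2 lower. DDIT4, an inhibitor of mTORC1, had 60.1, 57.5 and 48 CPM with Menthae Herba, against 18.8, 15.2 and 16 CPM with Saposhnikoviae Radix (1.72 ± 0.10). VLDLR, a lipoprotein receptor, differed by 1.63 ± 0.17 and SLC38A2, a neutral amino acid carrier, by 0.94 ± 0.07. ASNS, asparagine synthetase, had 51.7, 51.9 and 54.9 CPM with Menthae Herba, against 24.8, 20.2 and 23.5 CPM with Saposhnikoviae Radix, with vehicle between them at 31.4 ± 1.94 CPM (1.21 ± 0.06). Amino acid transporters in general were higher in 8 of 16 and lower in 2. Chaperones of the endoplasmic reticulum did not share a direction: 6 of 19 were higher and 7 lower, HERPUD1, of the degradation pathway, at 0.41 ± 0.05 and SDF2L1, a chaperone cofactor, at -0.36 ± 0.09. Among p53 targets 13 of 22 were higher and 1 was lower; CDKN1A, the p21 inhibitor of cyclin kinases, differed by 0.72 ± 0.06 and TP53INP1 by 0.75 ± 0.06. MDM2, the feedback gene of p53, was higher at 0.26 ± 0.09.

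Cell division genes were lower in nearly full sets. Of 30 tested genes of G2 and mitosis, 29 were lower and 0 higher, with a median log2 fold change of -0.60, where 16.1% of all genes were lower. KIF20A, a motor of cytokinesis, had 42.2, 46.6 and 43.3 CPM with Menthae Herba, against 83, 79.3 and 81.4 CPM with Saposhnikoviae Radix (-0.88 ± 0.05, edgeR adjusted p = 1.9e-22). PLK1, a mitotic kinase, differed by -0.85 ± 0.05, the kinetochore motor CENPE by -0.83 ± 0.09 and CDC20, the activator of the anaphase complex, by -0.81 ± 0.05. The proliferation marker MKI67 had 340, 311 and 329 CPM with Menthae Herba, against 491, 598 and 579 CPM with Saposhnikoviae Radix and 627 ± 31.4 CPM in vehicle. No library of 1 herb overlapped the other in these 5 genes.

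DNA replication genes were lower in 27 of 30 tested and higher in 0, with a median of -0.47. All 10 licensing genes were lower, among them MCM2 (-0.59 ± 0.06), MCM7 (-0.60 ± 0.05) and MCM10 (-0.60 ± 0.05), parts and partners of the helicase that opens origins. MCM7 had 199, 189 and 186 CPM with Menthae Herba, against 291, 275 and 305 CPM with Saposhnikoviae Radix. RFC3, of the clamp loader, differed by -0.59 ± 0.06. Heat shock proteins were lower in 12 of 18 and higher in 0. HSP90AA1, the inducible HSP90, had 1270, 1229 and 1352 CPM with Menthae Herba, against 1799, 1895 and 1886 CPM with Saposhnikoviae Radix (-0.53 ± 0.05), and the near-identical HSPA1A and HSPA1B, whose reads cannot be split safely, differed by -0.49 ± 0.08 and -0.53 ± 0.09.

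Lipid synthesis was lower with Menthae Herba by small amounts across many enzymes. Of 20 tested enzymes of cholesterol synthesis 17 were lower and 0 higher, with a median of -0.27. HMGCS1, at the entry of the pathway, had 226, 217 and 231 CPM with Menthae Herba, against 335, 301 and 313 CPM with Saposhnikoviae Radix (-0.50 ± 0.05). MVK differed by -0.52 ± 0.07 and SQLE by -0.45 ± 0.04. Fatty acid and glycerolipid synthesis had 11 of 17 genes lower and 2 higher. GPAM, the first acyltransferase of triglyceride synthesis, had 77.2, 81.2 and 78.8 CPM with Menthae Herba, against 151, 158 and 152 CPM with Saposhnikoviae Radix (-0.96 ± 0.05), and DGAT2, the last one, differed by -0.58 ± 0.07.

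Genes of fat storage were mixed, with 5 of 11 higher and 2 lower. PLIN2, a coat protein of lipid droplets, had 261, 283 and 271 CPM with Menthae Herba, against 132, 119 and 125 CPM with Saposhnikoviae Radix and 115 CPM on average in vehicle (1.12 ± 0.05). PLIN3, PLIN4 and CIDEC, also of the coat, differed by 0.45 ± 0.06, 0.56 ± 0.11 and 0.65 ± 0.13, while PLIN1, with means under 1 CPM, was lower (-1.65 ± 0.32). Fatty acid oxidation and PPARA targets were higher in 10 of 20 and lower in 3, with CPT1A, which admits fatty acids to mitochondria, at 0.50 ± 0.07.

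Secreted liver products and liver transcription factors were called in both directions. ALB, albumin, had 7908, 8015 and 7886 CPM with Menthae Herba, against 8278, 7220 and 7600 CPM with Saposhnikoviae Radix, and was not called (0.04 ± 0.05, 95% interval -0.05 to 0.14). AFP, alpha-fetoprotein, was not called either (0.02 ± 0.05, 95% interval -0.09 to 0.13). Other markers of the liver were called: TTR, transthyretin, at 0.58 ± 0.10, SERPINA1, alpha-1 antitrypsin, at 0.21 ± 0.06 and FGB, a fibrinogen chain, at -0.39 ± 0.05. The SERPINA1 call was lost without Menthae Herba replicate 2 or Saposhnikoviae Radix replicate 3 (edgeR adjusted p 0.084 and 0.074). Carriers and apolipoproteins were higher in 3 of 22 tested and lower in 6, where 16.0% of all genes were higher and 16.1% lower. Acute phase genes and their receptors were higher in 5 of 18 and lower in 6. Among those, CP, ceruloplasmin, which oxidises iron in plasma, was higher at 1.07 ± 0.10 and HP, haptoglobin, lower at -0.77 ± 0.05. Of 16 hepatocyte transcription factors 6 were lower and 1 was higher. NR1H4, the bile acid receptor FXR, had 13.7, 12.7 and 13.6 CPM with Menthae Herba, against 41.8, 38.6 and 39.4 CPM with Saposhnikoviae Radix and 41.1 ± 1.22 CPM in vehicle (-1.58 ± 0.06, edgeR adjusted p = 9.5e-27). CEBPA, a factor of hepatocyte maturity, had 70.5, 64.3 and 58.2 CPM with Menthae Herba, against 149, 194 and 163 CPM with Saposhnikoviae Radix (-1.39 ± 0.11). FOXA1 and HNF4A were lower (-0.62 ± 0.06 and -0.41 ± 0.06). The 1 higher factor was NR0B2 (0.95 ± 0.07), the repressor SHP, known as a target of FXR. Of 14 bile acid genes 4 were higher and 6 lower. CYP8B1, which sets the type of bile acid made, was lower at -0.81 ± 0.11 and BAAT, which conjugates bile acids, higher at 0.92 ± 0.11.

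All 12 tested tubulin genes were called, 6 higher and 6 lower: the higher ones were led by TUBB6 (0.90 ± 0.07) and TUBB2B (0.88 ± 0.10), and the lower ones included TUBB4B (-0.54 ± 0.05) and TUBB (-0.41 ± 0.04). Autophagy and lysosome genes were higher in 18 of 27 and lower in 1, the factor TFEB (-0.54 ± 0.08); GABARAPL1, an ATG8 protein of the autophagosome, differed by 1.00 ± 0.08 and WIPI1 by 0.71 ± 0.05. Clock genes were higher in 3 of 17 and lower in 6, with the repressor BHLHE40 at 1.49 ± 0.10 and the output factor DBP at -0.80 ± 0.14. Among 27 cytosolic ribosomal protein genes 1 was called, RPL4 (0.11 ± 0.04), a call lost without Menthae Herba replicate 2 or 3 or Saposhnikoviae Radix replicate 2 or 3 (adjusted p 0.057 to 0.14 by edgeR). Of 13 mitochondrially encoded mRNAs 0 were called. The nuclear RNAs MALAT1 (261, 244 and 282 CPM with Menthae Herba, against 218, 244 and 218 CPM with Saposhnikoviae Radix) and KCNQ1OT1 were not called (0.21 ± 0.30 and -0.19 ± 0.24), NEAT1 was higher (0.44 ± 0.08) and 3 of 6 nuclear noncoding RNAs were called in all.

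Other lists had members in both directions. Coagulation and complement genes were higher in 3 of 23 and lower in 9, among them KNG1, kininogen (-1.43 ± 0.13), and C8A, of the membrane attack complex (-0.64 ± 0.08). Urea cycle and glutamine genes were higher in 3 of 12 and lower in 4, with ARG2, mitochondrial arginase, at 0.70 ± 0.05 and GLUD1, glutamate dehydrogenase, at -0.41 ± 0.04. Interferon-stimulated genes were higher in 2 of 13 and lower in 2, and other cytochromes P450 higher in 2 of 13 and lower in 3, counts near the 16.0% higher and 16.1% lower over all genes. YAP targets and actin genes were higher in 11 of 23 and lower in 5, with the receptor kinase AXL at 0.98 ± 0.11 and actin itself, ACTB, at -0.22 ± 0.05.

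Some genes stood on opposite sides of vehicle, called against it with both herbs, and the naming rule took the 8 of largest herb difference. That limit left out others, whose total was not counted. SLC40A1 was such a gene, at 0.37 ± 0.04 with Menthae Herba and -0.34 ± 0.05 with Saposhnikoviae Radix, each over vehicle. ADM2, a peptide hormone of the calcitonin family, had 17.2, 16 and 15.7 CPM with Menthae Herba and 5.98, 7.63 and 6.65 CPM with Saposhnikoviae Radix, against 8.64 ± 0.574 CPM in vehicle. CCN1, a matrix signal and YAP target, had 19.5, 23.9 and 24.1 CPM with Menthae Herba and 8.35, 10.5 and 8.39 CPM with Saposhnikoviae Radix, against 11.5 ± 0.465 CPM in vehicle. TIMP1, an inhibitor of matrix proteases, had 45.1, 52.3 and 48.1 CPM with Menthae Herba and 26.4, 25.2 and 24 CPM with Saposhnikoviae Radix, against 31.4 ± 1.27 CPM in vehicle. In these 3 genes every vehicle library lay between the herbs. SLC22A7, an organic anion carrier of the hepatocyte, was the reverse, with 3.57, 2.92 and 2.50 CPM under Menthae Herba and 9.10, 6.64 and 9.28 CPM under Saposhnikoviae Radix, against 6.00 ± 0.382 CPM in vehicle. ASNS and TFRC, given above, H2BC21, a histone gene (1.03 ± 0.12 between the herbs), and S100A11, a calcium-binding protein (1.03 ± 0.15), were the others that the naming rule chose. Both comparisons with vehicle use the same 3 vehicle libraries.

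Of the 8 genes named for the largest change with Saposhnikoviae Radix against vehicle, CYP1A1 and 4 metallothioneins are given above, and the other 3 were not called between the herbs. TMEM160 had 5.16, 5.59 and 3.05 CPM with Menthae Herba and 4.21, 7.49 and 6.13 CPM with Saposhnikoviae Radix, against 1.83 ± 0.383 CPM in vehicle, with overlapping herbs (-0.35 ± 0.40, 95% interval -1.17 to 0.46). The loci AC026464.6 (0.05 ± 0.42) and AC011558.1 (-0.35 ± 0.28) overlapped too, and the first had 2.11, 3.63 and 8.37 CPM with Menthae Herba, against 5.39, 2.99 and 4.82 CPM with Saposhnikoviae Radix. AC011558.1 was called with no filter on low counts (-0.342, edgeR adjusted p = 0.0026).

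At the lower doses, measured in libraries that do not overlap with those at 500, the herbs differed far less. At 20 µg/mL 1 gene was called (0.00601%), CYP1A1, against 1282 genes at an unadjusted p under 0.05 by edgeR; DESeq2 also called 1 gene. The count was 209 with no filter on low counts and 6 with only the groups compared, CYP1A1 among them in both. At 100 µg/mL 255 of 16644 genes were called (1.53%), 177 higher and 78 lower with Menthae Herba, and 14 of them by at least 2-fold. Of these 255, 248 were also called at 500 µg/mL, which is 97.3% of the list at 100 and 4.65% of the list at 500. The direction was the same for 247. The exception was CYP24A1, the vitamin D hydroxylase, at 0.33 ± 0.06 at 100 and -0.45 ± 0.07 at 500 µg/mL. The count of 255 fell to 163 without Menthae Herba 100 replicate 3, to 150 without Saposhnikoviae Radix 100 replicate 1 and to 153 without its replicate 2. It was 616 with only the groups compared, 368 with no filter and 362 with a replicate block within the first number of the sample code. Genes at least 2-fold higher at 500 had a median log2 fold change of 0.11 at 20, 0.33 at 100 and 1.27 at 500 µg/mL. Those at least 2-fold lower had medians of 0.01 at 20, -0.23 at 100 and -1.38 at 500 µg/mL. Both sets were chosen by their fold change at 500, so their medians there are not comparable with those at 20 and 100.

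**Figure D4:**
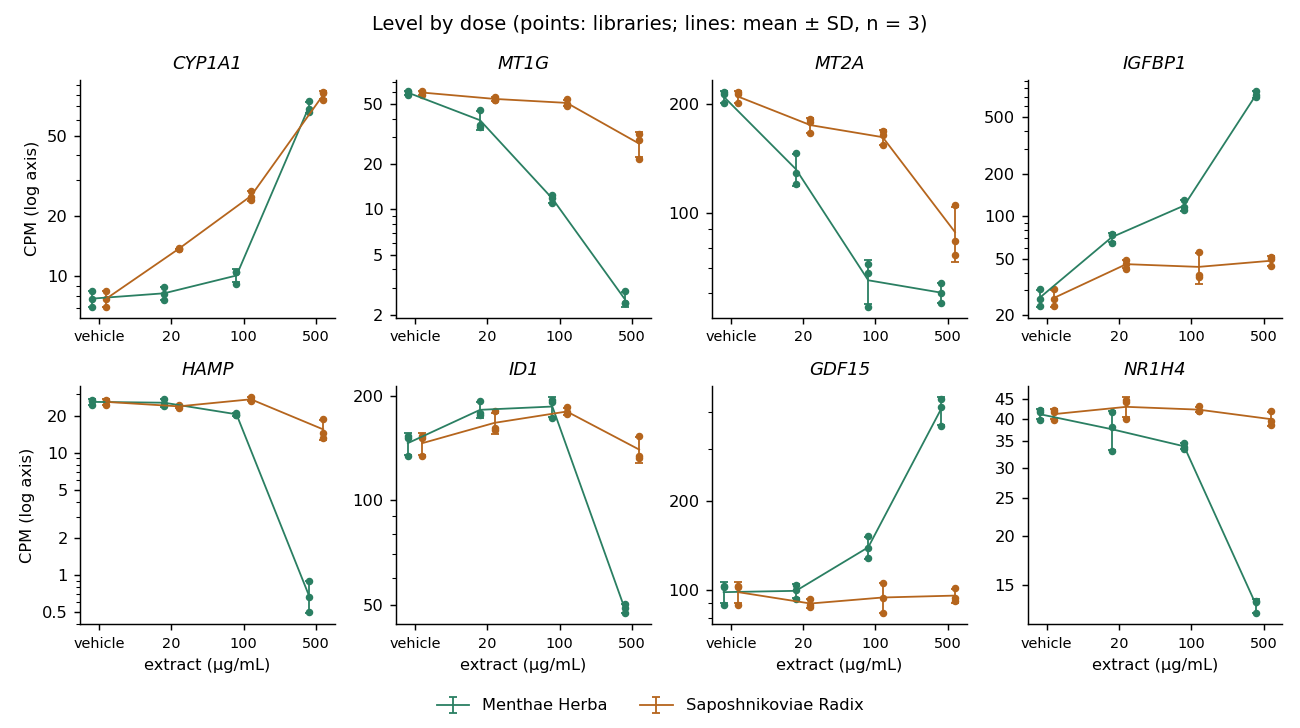
Level (CPM, log axis) of 8 genes with vehicle and with 20, 100 and 500 µg/mL of Menthae Herba (green) or Saposhnikoviae Radix (brown); points are libraries and lines join means ± SD (n = 3), and both lines start from the same 3 vehicle libraries. CYP1A1 separates at 20 and 100 µg/mL and nearly meets at 500, while HAMP and ID1 separate at 500.

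CYP1A1 set the herbs apart at the lowest dose. At 20 µg/mL it had 7.66, 8.86 and 8.20 CPM with Menthae Herba, against 13.7, 13.7 and 13.8 CPM with Saposhnikoviae Radix, a log2 fold change of -0.73 ± 0.08 (edgeR adjusted p = 5.3e-09). At 100 µg/mL the values were 10.5, 10.5 and 9.20 CPM with Menthae Herba and 23.9, 26.6 and 24.8 CPM with Saposhnikoviae Radix (-1.32 ± 0.07, edgeR adjusted p = 1.6e-20). The herb difference at 500 µg/mL minus that at 20 was 0.53 ± 0.09 (edgeR adjusted p = 2.1e-05), so it was smaller at the top dose. Saposhnikoviae Radix lay above vehicle from the lowest dose, and Menthae Herba at 20 µg/mL averaged 8.24 ± 0.603 CPM, near vehicle.

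Metallothioneins parted at 100 µg/mL already. MT1G had 12.4, 11.9 and 11 CPM with Menthae Herba, against 50.1, 48.6 and 53.8 CPM with Saposhnikoviae Radix at 100 µg/mL (-2.11 ± 0.16), and MT2A differed there by -1.32 ± 0.16. All 7 tested metallothioneins and SLC30A1 were lower at 100, 8 of the 13 genes of the zinc list, and SLC39A10 and SLC39A4 were higher. The summed level over the 7 was 278, 266 and 313 CPM with Menthae Herba, against 381, 376 and 385 CPM with Saposhnikoviae Radix at 20 µg/mL. At 100 µg/mL it was 133, 125 and 106 CPM with Menthae Herba, against 367, 340 and 373 CPM with Saposhnikoviae Radix. The herbs did not overlap in this sum at either dose. Its mean was 121 CPM with Menthae Herba and 360 CPM with Saposhnikoviae Radix at 100, and 79.4 and 198 CPM at 500. The sum thus differed by a smaller ratio at 500 than at 100. MT2A and MT1A (-0.9 at 100, -0.56 at 500) also differed less at 500, while MT1G, MT1F, MT1X and MT1E differed more. The change from 100 to 500 was not tested. Glycolysis genes were higher in 14 of 22 at 100 µg/mL, with a median of 0.26, hypoxia targets in 7 of 21 and immediate early genes in 8 of 20. Over all 16644 genes tested, 177 were called higher and 78 lower at that dose. IGFBP1 had 110, 131 and 116 CPM with Menthae Herba, against 37, 38.4 and 56.2 CPM with Saposhnikoviae Radix at 100 µg/mL (1.44 ± 0.22).

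Of the 17 hepcidin and BMP-SMAD genes 0 were called at 100 µg/mL by edgeR, 3 passed an unadjusted p of 0.05 and DESeq2 called 1. HAMP had 21.2, 20.3 and 20.2 CPM with Menthae Herba, against 26.9, 26.6 and 28.5 CPM with Saposhnikoviae Radix at 100 (-0.41 ± 0.12, edgeR adjusted p = 0.077), groups that do not overlap but miss the threshold. ID1 had 192, 194 and 172 CPM with Menthae Herba, against 179, 177 and 185 CPM with Saposhnikoviae Radix at 100 (0.05 ± 0.08), groups that overlap. G2 and mitosis genes were lower in 2 of 30 at 100 µg/mL by edgeR, with 11 at an unadjusted p under 0.05. DNA replication genes were lower in 0 of 30 by edgeR, with 1 at an unadjusted p under 0.05 and 0 by DESeq2. The change of the herb difference from 20 to 500 µg/mL was called for 3329 genes (20.0%), 1666 upward and 1663 downward, and among named genes it was -4.56 ± 0.26 for HAMP, -1.64 ± 0.12 for ID1, 3.28 ± 0.31 for IGFBP1 and -2.94 ± 0.26 for MT1G.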

How the data were processed

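RNA was sequenced as 100 bp paired-end reads from MGIEasy directional libraries, per the labels' protocols. The authors deposited a table of expected counts. FastQC 0.11.9, Trim Galore 0.6.5, STAR 2.7.3a and RSEM 1.3.3 and the build GRCh38 are named by the submitters' processing notes. Annotation release, settings and strand: not given in the sources used here. Expected counts were rounded. Symbols came from a gene name table and GENCODE v29 (41209 and 15846 of 60675 gene IDs), and positions from GENCODE v29. IDs without a symbol held 0.05% of counts.

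With edgeR 4.0.16 (R 4.3.3), genes were kept by filterByExpr by group (minimum count 10), scaled by TMM and fitted by the quasi-likelihood model with robust dispersion over 57 libraries in 19 groups; the 3 libraries of an unreplicated formula were left out. Each p-value is adjusted by Benjamini-Hochberg over 16644 genes. The standard error is the absolute log2 fold change over the square root of F, and intervals are at 95%. CPM use TMM-adjusted totals, except marker sums and floors, which use plain totals. Library totals ran from 20446542 to 32386486 counts. The fit was also run on simulated counts built from its own means and dispersions. There, 64.2% of 1.5-fold, 82.1% of 2-fold and 90.9% of 4-fold changes were recovered, with 5 false calls.

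Named genes were the 12 of largest fold change per direction (called, at least 5 CPM, no overlap between herbs), up to 4 called members per list at that level, 8 called on opposite sides of vehicle, 8 most changed by Saposhnikoviae Radix, and 18 preset genes. Some genes of the rule are not reported here. Others complete a role group or were chosen after their values were seen. The comparison and the 44 lists were chosen with earlier results of these data known. Alternatives were RLE scaling, no filter, only the groups compared, replicate blocks, DESeq2 1.42.0 and leaving out each library.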

Additional observations from a re-analysis of the deposited data

Results flagged for a closer look

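Named genes were screened for a herb difference that changed between 20 and 500 µg/mL, tested as the log2 fold change of Menthae Herba over Saposhnikoviae Radix at 500 minus that at 20 by edgeR. Among genes higher at 500 it was 3.28 for IGFBP1, 2.27 for DEPP1, 1.95 for CA9, 1.94 for GDF15, 1.83 for CEMIP, 1.78 for both EGR1 and CHST15, 1.75 for RBM24, 1.72 for ITGA10, 1.68 for FILIP1L and 1.55 for G6PC1. Among genes lower at 500 it was -4.56 for HAMP, -2.94 for MT1G, -2.50 for MT1F, -2.0 for GSTA2, -1.97 for MT1X, -1.93 for TJP3, a tight junction protein, -1.84 for GSTA1, -1.82 for MT1E, -1.74 for ACSM2A, a medium-chain acyl-CoA synthetase, -1.66 for ID3, -1.64 for ID1 and -1.39 for NR1H4. Of the genes named in any case, AKR1B10 gave 0.85, CYP1A1 0.53, NQO1 0.32, HMOX1 -0.62 and MKI67 -0.70. These genes were chosen for their difference at 500, so the sizes describe and the direction is no sign of stability. CYP1A1 is the gene of this group whose difference was closer to 0 at 500 than at 20 µg/mL.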

How the results depend on the processing

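At 500 µg/mL the number of genes called was 5356 with RLE scaling, 4911 with no filter, 5213 with only the groups compared, 5115 by DESeq2 and 4566 to 4869 without 1 library. At 100 µg/mL it was 616 with only the groups compared and 150 to 197 without 1 library. At 20 µg/mL it was 209 with no filter, of which 6 were outside the genes of the main filter, and 6 with only the groups compared; the cause was not tested. The change from 20 to 500 ranged from 2756 to 3785. With the replicate number as a block 5388 genes were called at 500, and within the first number of the sample code 5722. Same-numbered libraries of the herbs at 500 deviated with r of -0.062, 0.024 and -0.036, so the numbers show no pairing at 500. At 100 the r values were -0.009, 0.014 and 0.006, and at 20 they were 0.017, 0.079 and 0.047. Without 1 library the log2 fold change, never called, ran from -0.001 to 0.099 for ALB and from -0.031 to 0.097 for AFP, negative without Saposhnikoviae Radix replicate 2. For AC026464.6 it ran from -0.666 (without Menthae Herba replicate 3) to 0.43 and was -0.133 without Saposhnikoviae Radix replicate 2. Calls were gained for 3 named genes: MALAT1 and KCNQ1OT1 with no filter or with only the groups compared, and AC011558.1 with no filter. They were lost for 8 under at least 1 setting, including MT2A and RPL4. Near the filter, levels rest on few counts, and differences there may not be detectable at this depth.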
